A study of Rattus norvegicus with 8 samples.

Results

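Nucleus pulposus (NP) cells make up the soft centre of the intervertebral disc and arise from the embryonic notochord. They keep a set of genes that distinguish them from cells of the annulus fibrosus and cartilage, among them simple-epithelial keratins, the surface protein CD24 and the carbonic anhydrase CA12. Here 10 genes listed as NP keratins and phenotype markers were followed in primary rat NP cells after knockdown of Sirt6, a nuclear NAD+-dependent deacetylase. Whether each of the 10 separates NP cells from annulus fibrosus or cartilage cells was not tested. The 10 genes were chosen by name as the keratins Krt7, Krt8, Krt18 and Krt19 and the phenotype markers Cd24, Car12, Basp1, Fbln1, Mgp and Aqp1. Of the 10, 8 had a row among the 13543 named genes of the deposited comparison, and those 8 all passed the filter on low counts that left 13250 genes for testing. Krt18 and Krt19 had no row in the named table, which holds the rows whose 8 counts sum to more than 80, and are taken here as below its count filter, with no value given.

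Cells came from adult Sprague Dawley rats (3 to 6 months old per the study's methods), 4 rats per the series record. They were cultured in DMEM with serum and transduced with lentivirus, followed by puromycin. Sirt6-KD cells (S5 to S8) received a mixture of 3 ShSirt6 clones, which are shRNA constructs and not cell clones. Sirt6-Ctrl cells (S1 to S4) received a control ShRNA, and the labels name no other genotype or agent. Both groups are thus virus-transduced cultures, and the methods describe no isolation of single cells for either. The methods describe a day in hypoxia for cells used to check the knockdown by protein and do not say whether the sequenced cells had it. Each group had 4 libraries of RNA from independent experiments. The series record sets the knockdown cells against their own controls, which implies pairing by rat, but no label ties a library to a rat, so all tests here were unpaired and leave that pairing out.

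Depth per control library was 31994838 to 40124813 counted reads, and per Sirt6-KD library 32382957 to 36600792. Levels are TMM-normalised CPM, that is reads scaled to a common library size, and 3 reads correspond to 0.0727 to 0.0928 CPM. Sirt6 fell from 1755 to 1964 reads in the controls to 695 to 753 in Sirt6-KD (log2 fold change −1.35 ± 0.13 SE, edgeR adjusted p = 0.000713). Of the controls, 2 stood apart by the share of reads from the added ERCC spike-in RNAs, with 6.27% for S1 and 9.80% for S2, against 3.08% for S3, 2.97% for S4 and 2.15 to 2.47% for S5 to S8. Values that rest on S1 and S2 are therefore given with and without them. Over all rows tested, the control S3 was nearer to the Sirt6-KD libraries than to the other controls, though only slightly for S4. Its correlation of log2 CPM was 0.943 to 0.95 with S5 to S8, against 0.923 with S1, 0.890 with S2 and 0.941 with S4. The reason was not tested. A gene was called when the edgeR adjusted p was below 0.05 and the fold change above 1.5.

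Keratins are the intermediate filament proteins of epithelial-type cells, and each filament needs a type II and a type I chain. Krt7 and Krt8 are type II chains, and Krt18 and Krt19 are type I chains that pair with them in simple epithelia and in notochord-derived cells. CD24 is a small glycoprotein held in the membrane by a lipid anchor. BASP1 is an acylated protein of the inner membrane face. CA12 is a carbonic anhydrase with its active site outside the cell, where it acts in pH control, and AQP1 is a water channel. Fibulin-1 is a glycoprotein of the extracellular matrix, and matrix Gla protein (MGP) inhibits calcification after vitamin K-dependent carboxylation.

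Of the 8 markers with values, 1 was called higher (Krt7), 1 was called lower (Krt8) and 6 were not called. Over all genes tested 8.02% were called higher and 10.7% lower, which is 18.7% in either direction. The 4 Sirt6-KD libraries lay wholly above or below the 4 Sirt6-Ctrl libraries for 2 markers, Krt7 and Krt8, against 30.4% of all genes (14.8% above and 15.6% below). Their log2 fold changes had a median of 0.03, and those of the whole table of tested genes one of −0.02. Neither the count of calls nor the median set the markers apart from the background, and the 2 calls were in opposite directions.

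Promoter sequence from RefSeq (assembly GRCr8) was available for 6 of the 10 genes, with no entry for Krt7, Krt19, Fbln1 or Mgp. The windows below belong to the 4 genes with an entry whose level differed most between the highest and the lowest Sirt6-Ctrl library, and are shown as the upstream sequence of the markers described next. Capitals mark TATAAA (found in the core promoter of many regulated genes) and GGGCGG (bound by zinc finger factors such as Sp1), searched on both strands. TGANTCA and ACGTG were searched as well and are not marked. Of 33469 rat promoters of 300 bases, 14.2% held TATAAA, 33.1% GGGCGG, 7.33% TGANTCA and 19.3% ACGTG. The windows are shorter parts of such promoters, so these shares do not apply to them. They are 170 bases for Krt8, from 250 to 81 bases upstream, and 150 bases for each of the others. Positions count upstream from the annotated start, and a match is a description of the letters only. In Krt8 the window runs on the minus strand of chr7:135010420-135010589, and TATAAA read on the 2 strands overlaps, at 104 and 106 bases upstream. In Cd24 (plus strand, chr20:48656327-48656476) GGGCGG lay 81 bases upstream, and in Car12 (plus strand, chr8:76169665-76169814) it lay 76 bases upstream on the reverse strand. Aqp1 (plus strand, chr4:85812634-85812783) held TATAAA at 30 and GGGCGG at 87 bases upstream. Over the full promoters of 300 bases, GGGCGG matched 3 times in Cd24, 1 time each in Car12 and Aqp1 and 0 times in Krt8. Of the 4 genes, only Krt8 held TGANTCA, and Cd24 and Car12 held ACGTG.
Krt8: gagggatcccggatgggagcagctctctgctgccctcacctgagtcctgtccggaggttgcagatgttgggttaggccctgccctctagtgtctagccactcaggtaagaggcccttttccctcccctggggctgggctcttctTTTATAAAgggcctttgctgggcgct
Cd24: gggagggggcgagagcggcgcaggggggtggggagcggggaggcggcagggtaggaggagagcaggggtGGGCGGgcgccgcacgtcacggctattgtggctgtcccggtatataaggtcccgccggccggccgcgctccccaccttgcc
Car12: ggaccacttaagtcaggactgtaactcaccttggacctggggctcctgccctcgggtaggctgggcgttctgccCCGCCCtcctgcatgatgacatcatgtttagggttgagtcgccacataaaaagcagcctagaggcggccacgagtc
Aqp1: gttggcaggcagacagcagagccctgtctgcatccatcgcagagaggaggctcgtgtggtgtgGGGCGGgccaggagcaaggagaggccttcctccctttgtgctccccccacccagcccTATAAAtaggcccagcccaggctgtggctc

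Krt7 (ENSRNOG00000008057) rose in Sirt6-KD. Its level was 5.20, 4.14, 5.18 and 6.91 CPM in S1 to S4, from 134 to 285 reads, and 21.1, 19.3, 11.7 and 17.8 CPM in S5 to S8, from 447 to 728 reads. The 4 Sirt6-KD libraries all lay above the highest control, and S7 was the lowest of them. The mean level went from 5.36 ± 1.15 to 17.5 ± 4.09 CPM (SD, n = 4), a log2 fold change of 1.70 ± 0.27 SE (95% interval 1.11 to 2.30, edgeR adjusted p = 0.00421), or 3.25-fold. The call held without S1 and S2 (log2 fold change 1.54, edgeR adjusted p = 0.0129). In bulk RNA, more keratin 7-positive cells and more Krt7 RNA per cell cannot be told apart, and the same limit holds for each marker.

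Krt8 (ENSRNOG00000009779) was lower in Sirt6-KD. It stood at 10.7, 7.02, 3.74 and 4.80 CPM in S1 to S4, from 127 to 372 reads, and at 3.30, 2.36, 2.24 and 2.63 CPM in S5 to S8, from 79 to 114 reads. The groups did not overlap, but S3 was close to S5, and the 2 highest values were those of S1 and S2, the controls with the highest spike-in share. The mean fell from 6.56 ± 3.07 to 2.63 ± 0.473 CPM (SD, n = 4), a log2 fold change of −1.32 ± 0.41 SE (95% interval −2.23 to −0.40, edgeR adjusted p = 0.0441), or 2.49-fold lower. With S3 and S4 as the only controls the log2 fold change was −0.69 (edgeR adjusted p = 0.205). Leaving out 1 library ended the call for S1 (−0.94, edgeR adjusted p = 0.145), S5 (−1.44, 0.0813), S6 (−1.27, 0.119), S7 (−1.25, 0.12) or S8 (−1.27, 0.105). RefSeq lists 1 pseudogene copy of Krt8, and 7 copies of Krt18, 6 of them pseudogenes. How the counting treated reads shared with such copies is not stated. Whether this bears on the missing row of Krt18 was not tested.

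The relation between the 2 type II keratins within a library does not depend on how libraries are scaled. For each Krt8 read, S1 to S4 held 0.487, 0.590, 1.39 and 1.44 reads of Krt7. The ratio was 6.39, 8.18, 5.20 and 6.76 across S5 to S8. In S1 and S2 Krt8 reads outnumbered Krt7 reads, in S3 and S4 Krt7 was slightly ahead, and in each Sirt6-KD library the ratio was above 5. Since gene length was not used here, the ratio tells how the balance of reads moved between libraries and not which protein was more abundant. No test was made of the ratio, because both genes were selected by name with earlier results known.

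**Figure D1:**
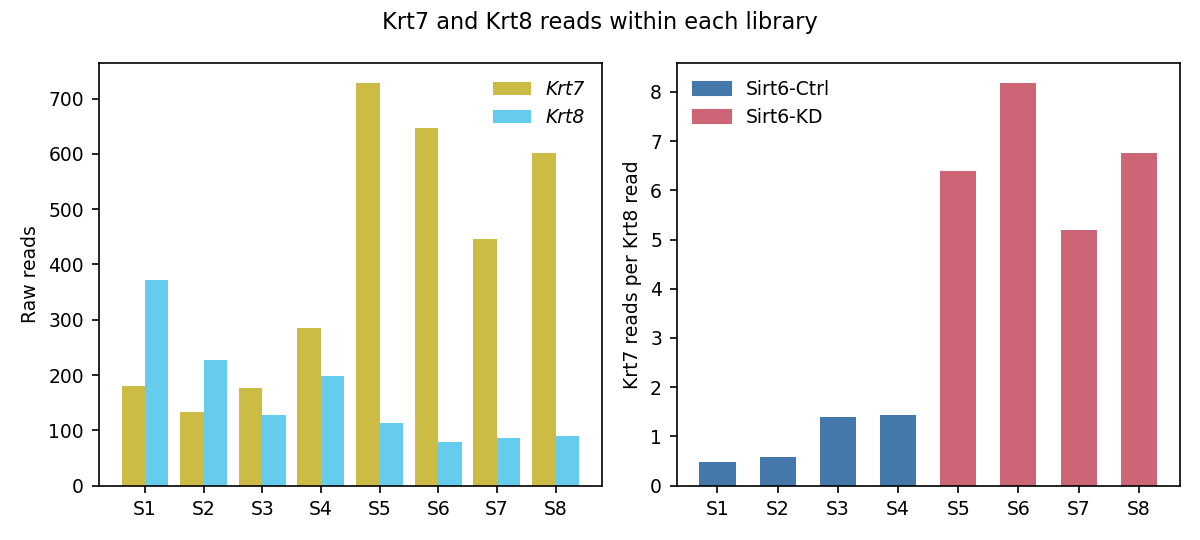
Krt7 and Krt8 within each library. The left panel plots raw reads of Krt7 and Krt8 in S1 to S8, and the right panel plots Krt7 reads per Krt8 read, with bars coloured by group (1 bar per library, both axes start at 0). The ratio was 0.487 to 1.44 among the controls and 5.20 to 8.18 among the Sirt6-KD libraries.

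Cd24 (ENSRNOG00000000321) had its highest levels in the controls but was not called. The controls gave 50.9, 47.1, 34.5 and 19.0 CPM, and S5 to S8 gave 13.3, 19.3, 28.4 and 16.0 CPM, from 460 to 1771 reads over the 8 libraries. S1 and S2 were again the highest, and the control S4 lay within the range of Sirt6-KD. The means were 37.9 ± 14.4 and 19.3 ± 6.55 CPM (SD, n = 4), with a log2 fold change of −0.98 ± 0.32 SE (95% interval −1.69 to −0.26, edgeR adjusted p = 0.0537). The gene was past the threshold without S4 (−1.20, edgeR adjusted p = 0.0168), without S7 (−1.22, edgeR adjusted p = 0.049) and with DESeq2 (adjusted p = 0.0211). Leaving out S1 and S2 gave −0.47 (edgeR adjusted p = 0.365), and with spike-in scaling its direction turned (0.21, edgeR adjusted p = 0.741). Under that scaling the median of all genes was 0.94, and Cd24 was at −0.73 relative to it.

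Basp1 (ENSRNOG00000046313) covered the same range in both groups. Its level was 139, 180.2, 153 and 227 CPM in the controls and 228, 179.9, 136 and 201 CPM in S5 to S8. The log2 fold change was 0.09 ± 0.20 SE (95% interval −0.34 to 0.52, edgeR adjusted p = 0.772). Under TMM scaling the interval thus leaves out a change as large as 1.5-fold in either direction. With spike-in scaling the log2 fold change was 0.995 ± 0.51 SE (edgeR adjusted p = 0.177), or 0.05 relative to the median of all genes under that scaling.

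**Figure D2:**
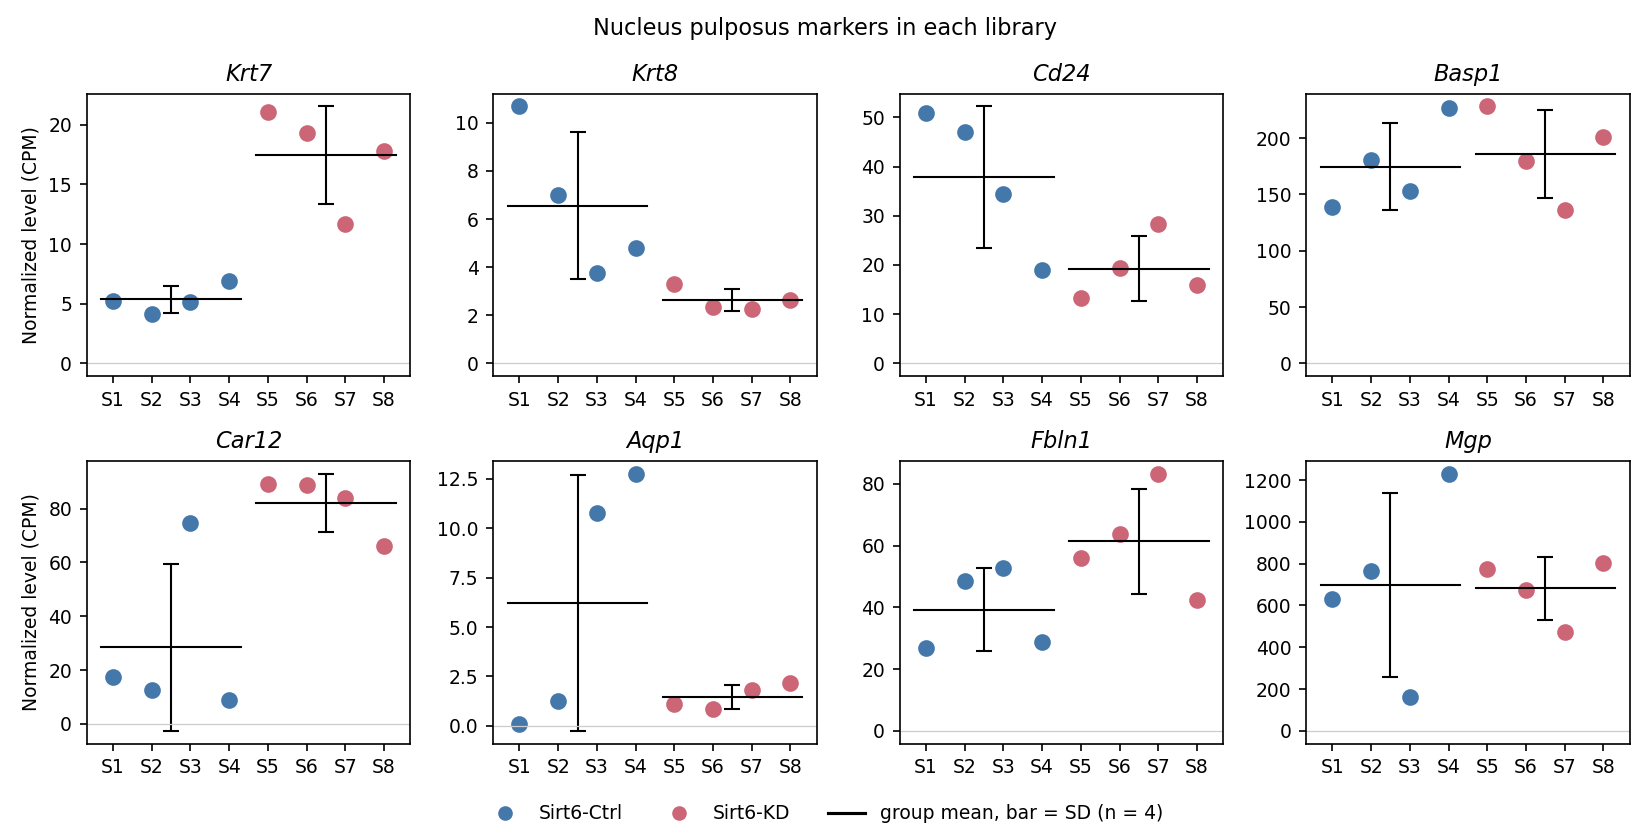
TMM-normalised level (CPM, linear axis, 1 scale per gene) of the 8 markers with values in the 4 Sirt6-Ctrl libraries (S1 to S4) and the 4 Sirt6-KD libraries (S5 to S8). Points are libraries, horizontal lines are group means and bars are SD (n = 4). The groups are separate for Krt7 and Krt8, and 1 control, S3, stands among the Sirt6-KD libraries for Car12 at 74.6 CPM.

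Car12 (ENSRNOG00000017766) was uniformly high in Sirt6-KD and mixed in the controls. S1, S2 and S4 gave 17.6, 12.6 and 8.87 CPM, while S3 gave 74.6 CPM. S5 to S8 gave 89.3, 88.7, 84.1 and 66.3 CPM, and S3 was above the lowest of these. The means were 28.4 ± 31.0 and 82.1 ± 10.8 CPM (SD, n = 4), a log2 fold change of 1.53 ± 0.57 SE (95% interval 0.27 to 2.79) that was not called (edgeR adjusted p = 0.0776). Without S3 the log2 fold change was 2.66 (edgeR adjusted p = 0.000266), and limma-voom called it with all 8 libraries (2.09, adjusted p = 0.00908). It was 0.98 without S1 and S2, which leaves S3 and S4 as controls (edgeR adjusted p = 0.325).

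Aqp1 (ENSRNOG00000011648) varied widely among the controls. S1 to S4 held 3, 41, 365 and 526 reads, which is 0.0862, 1.27, 10.7 and 12.8 CPM. Sirt6-KD had 39, 28, 69 and 73 reads, or 1.13, 0.836, 1.80 and 2.16 CPM. S1 lay below the Sirt6-KD range, S2 within it, and S3 and S4 above it. The SD of log2 CPM among the controls was 3.05, larger than for 99.9% of the genes tested. The log2 fold change was −2.07 ± 1.05 SE (95% interval −4.38 to 0.25, edgeR adjusted p = 0.181). With S3 and S4 as the only controls it was −2.97 (edgeR adjusted p = 0.00432).

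The matrix markers were not called. Fbln1 (ENSRNOG00000014137) gave 26.8, 48.6, 52.9 and 28.7 CPM in the controls and 56.0, 63.9, 83.2 and 42.3 CPM in Sirt6-KD, with 1 Sirt6-KD library, S8, inside the control range. Its log2 fold change was 0.64 ± 0.27 SE (95% interval 0.05 to 1.24, edgeR adjusted p = 0.111), and without S3 it was 0.82 (edgeR adjusted p = 0.0475). Mgp (ENSRNOG00000005695) gave 629, 765, 159.7 and 1230.3 CPM in the controls, so that S3 and S4 were its extremes. In Sirt6-KD it gave 776, 676, 473 and 804 CPM, all within the control range. Its log2 fold change was −0.03 ± 0.46 SE (95% interval −1.04 to 0.98, edgeR adjusted p = 0.973), and its sign changed in 9 of 19 alternative analyses.

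The control libraries thus ordered the markers differently from one another. S1 and S2 had the highest Krt8 and Cd24 and the lowest Aqp1, S3 had the highest Car12 and the lowest Mgp, and S4 had the lowest Cd24 and Car12 and the highest Aqp1 and Mgp. The SD of log2 CPM among the controls was larger than the median gene's 0.465 for Krt8 (0.656), Cd24 (0.643), Car12 (1.35), Aqp1 (3.05), Fbln1 (0.505) and Mgp (1.26), and smaller for Krt7 (0.299) and Basp1 (0.309). Among the Sirt6-KD libraries the median gene was at 0.211, and the markers ran from 0.203 for Car12 to 0.599 for Aqp1. The part of the spike-in share of S1 and S2 in these orders was not tested.

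**Figure D3:**
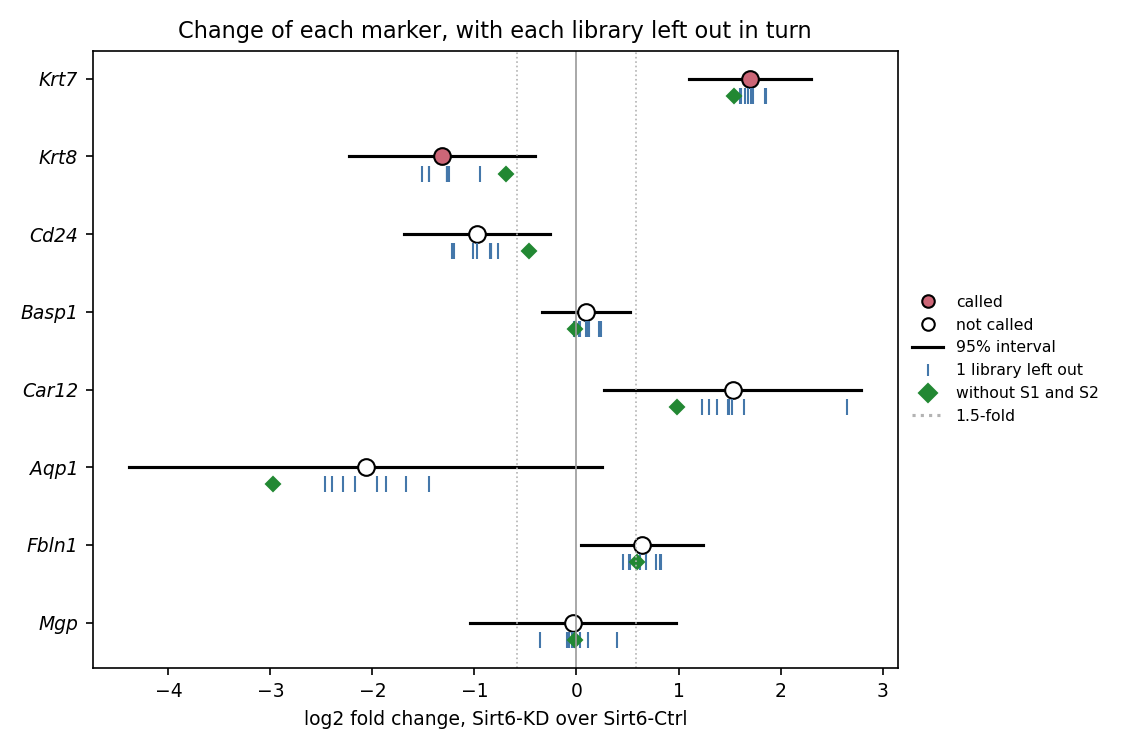
Change of each marker between the groups. Circles show, on a log2 scale, Sirt6-KD relative to Sirt6-Ctrl (filled when called) with the 95% interval, blue ticks are the same value with 1 library left out, green diamonds the value without S1 and S2, and dotted lines mark 1.5-fold. Krt7 stays between 1.54 and 1.85 throughout, Krt8 moves to −0.69 without S1 and S2, and Car12 moves to 2.66 without S3.

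Scaling by the spike-in reads instead of TMM moved the whole table upwards, to a median log2 difference of 0.94, and 0 of 8 markers were called under it. Sirt6 itself was at −0.36 under this scaling (edgeR adjusted p = 0.567). Relative to that median Sirt6 was at −1.31, Krt7 at 1.61 and Krt8 at −1.07. The other markers relative to it were Car12 at 1.24, Fbln1 at 0.66, Basp1 at 0.05, Mgp at −0.01, Cd24 at −0.73 and Aqp1 at −2.54. Counted as CPM of the spike-in reads, Krt7 still separated the groups, with 35.5 to 239 in the controls and 558 to 918 in Sirt6-KD, while Krt8 overlapped, with 60.2 to 166 and 98.8 to 144.

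Few other keratins had a row in the named table. Of 38 further keratin genes listed, 5 had one, and of these 1 was called lower (10.7% of all genes were) and 4 were not called. Krt10, a type I keratin of differentiated epidermis, had 231, 492, 184 and 169 reads in the controls and 92, 112, 29 and 80 in Sirt6-KD (log2 fold change −1.78 ± 0.55 SE, edgeR adjusted p = 0.0435), and its call was lost in 12 of 19 alternative analyses, including the one without S1 and S2. Krt80, a type II keratin, lies next to Krt7 in the RefSeq gene order with 0 protein-coding genes between them. It had 53, 6, 97 and 239 reads in the controls and 221, 175, 213 and 312 in Sirt6-KD (log2 fold change 1.35 ± 0.74 SE, edgeR adjusted p = 0.215), so that S4 lay within the Sirt6-KD range. Krt17, Krt23 and Krt79 reached at most 88, 166 and 97 reads in any library and were not called. Krt8 is separated from Krt7 by 31 genes, of which 26 are protein-coding and 23 carry a keratin symbol. It adjoins Krt18 with 0 protein-coding genes between.

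Genes of proteins that anchor keratin or other filaments to junctions and to the rest of the cytoskeleton included 5 that rose. Of 14 such genes listed, 11 were tested, and 5 were called higher and 1 lower, against 8.02% and 10.7% of all genes. The list nevertheless had a negative median (−0.28 on the log2 scale), since its 6 other genes had negative values. Periplakin (Ppl), a plakin of the desmosomal plaque, had 25, 1, 45 and 23 reads in the controls and 151, 180, 321 and 207 in Sirt6-KD (log2 fold change 3.20 ± 0.77 SE, edgeR adjusted p = 0.0178). Plakophilin 1 (Pkp1), a desmosomal armadillo protein, went from 165 ± 78.6 to 439.6 ± 51.1 CPM (log2 fold change 1.41 ± 0.28 SE, edgeR adjusted p = 0.00865). Dystonin (Dst), a large linker of filaments to hemidesmosomes and microtubules, went from 296 ± 97.5 to 669 ± 67.0 CPM (log2 fold change 1.18 ± 0.22 SE, edgeR adjusted p = 0.00766). Macf1, which crosslinks actin and microtubules, rose with a log2 fold change of 0.96 ± 0.22 SE (edgeR adjusted p = 0.0151), and envoplakin (Evpl), the partner of periplakin, with 1.5 ± 0.38 SE (edgeR adjusted p = 0.0205). Evpl was the fifth by p of those called higher and was named after its value was seen.

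Fam83h, a regulator of keratin organisation, fell from 16.0 ± 3.07 to 8.24 ± 1.37 CPM (log2 fold change −0.95 ± 0.24 SE, edgeR adjusted p = 0.0195). The core keratin linkers plectin (Plec, −0.45 ± 0.15 SE, edgeR adjusted p = 0.0505), plakoglobin (Jup, −0.36 ± 0.16 SE, edgeR adjusted p = 0.133) and desmoplakin (Dsp, 4 to 141 reads in the controls and 9 to 31 in Sirt6-KD) were not called. Among the genes called higher, the lowest log2 fold change over 19 alternatives was 0.83 for Dst and 0.64 for Macf1. It was 1.09 for Evpl, 1.20 for Pkp1 and 2.70 for Ppl. The list had 4 genes called higher and 1 lower without S1 and S2. Leaving out 1 library gave 3 and 0 for S1, 5 and 2 for S3, 4 and 0 for S5 or S7, 3 and 1 for S6 and 5 and 0 for S8, and the counts were 0 and 0 with spike-in scaling or glmTreat, a test against the 1.5-fold threshold.

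All 15 intermediate filament genes listed beside the keratins were tested, with 2 called higher, 1 lower and 12 not called, against 18.7% of all genes called in either direction, and a median log2 fold change of −0.13. Lamin B1 (Lmnb1) went from 7.67 ± 2.45 to 15.2 ± 2.94 CPM (log2 fold change 0.99 ± 0.29 SE, edgeR adjusted p = 0.034). Syncoilin (Sync) went from 32.3 ± 15.4 to 76.4 ± 7.03 CPM (1.24 ± 0.30 SE, edgeR adjusted p = 0.0174). Neurofilament heavy chain (Nefh) fell from 9.62 ± 4.01 to 3.21 ± 1.77 CPM (−1.58 ± 0.49 SE, edgeR adjusted p = 0.0425). Vimentin (Vim), the main filament protein of mesenchymal cells, had 332281 to 398862 reads in the controls and 272805 to 341606 in Sirt6-KD and was not called (−0.29 ± 0.17 SE, edgeR adjusted p = 0.236). Leaving out S1 and S2 left 1 gene called higher and 0 lower. Without S6 none of the 3 was called (0 higher and 0 lower), without S1, S5 or S8 the counts were 1 and 0, and without S7 they were 1 and 1. Over 19 alternatives the call was lost in 10 for Nefh, 7 for Lmnb1 and 4 for Sync.

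The families of the other markers were compared by the same counts. Of 15 other carbonic anhydrases listed, 8 were tested and 1 was called lower (2 without S3), against 10.7% of all genes. Their median log2 fold change was 0.01. Car3, a cytosolic form that also serves as a marker of notochordal NP, had 424, 756, 418 and 670 reads in the controls and 24, 56, 58 and 203 in Sirt6-KD (log2 fold change −2.70 ± 0.59 SE, edgeR adjusted p = 0.0127). Car9, another carbonic anhydrase of the cell surface, had 22832 to 27763 reads in the controls and 24730 to 30779 in Sirt6-KD (0.19 ± 0.12 SE, edgeR adjusted p = 0.297). Car11 and Car14, next by reads, were not called (−0.17 ± 0.29 and −1.03 ± 0.40 SE, edgeR adjusted p = 0.708 and 0.0907). In S3, the control with high Car12, Car9 was at 25767 reads and Car3 at 418 reads, both within the range of the other controls or next to it.

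Of 11 other aquaporins 1 had a row, Aqp11, with 0 to 50 reads and no call. Of 7 other fibulins 6 were tested and 1 was called lower (2 without S8), against 10.7% of all genes. Fibulin-5 (Fbln5), an elastic fibre protein, fell from 27.2 ± 8.01 to 8.54 ± 4.45 CPM (log2 fold change −1.67 ± 0.35 SE, edgeR adjusted p = 0.0109), while the more abundantly read Efemp2 and Fbln2 had log2 fold changes of −0.06 ± 0.13 and −0.01 ± 0.22 SE (edgeR adjusted p = 0.759 and 0.989). Hmcn1, the fourth by reads, was not called (1.40 ± 0.70 SE, edgeR adjusted p = 0.174).

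Of 18 genes of vitamin K-dependent carboxylation and its protein targets, 9 were tested. The calls were 0 higher and 2 lower, against 8.02% and 10.7% of all genes. Without S5, S6 or S7, and without S1 and S2, 1 was called lower. Vkorc1, which recycles vitamin K, fell from 28.7 ± 6.63 to 15.2 ± 2.49 CPM (log2 fold change −0.92 ± 0.22 SE, edgeR adjusted p = 0.0166). With spike-in scaling it stood at 0.16, or −0.79 relative to the median of all genes under that scaling. Periostin (Postn) fell from 239 ± 24.6 to 102 ± 12.8 CPM (−1.23 ± 0.14 SE, edgeR adjusted p = 0.00129). The carboxylase Ggcx, which modifies MGP, was not called (−0.29 ± 0.14 SE, edgeR adjusted p = 0.164). The relatives of Basp1, the membrane proteins Marcks, Marcksl1 and Gap43, were all tested and none was called (edgeR adjusted p = 0.408, 0.0564 and 0.82).

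**Figure D4:**
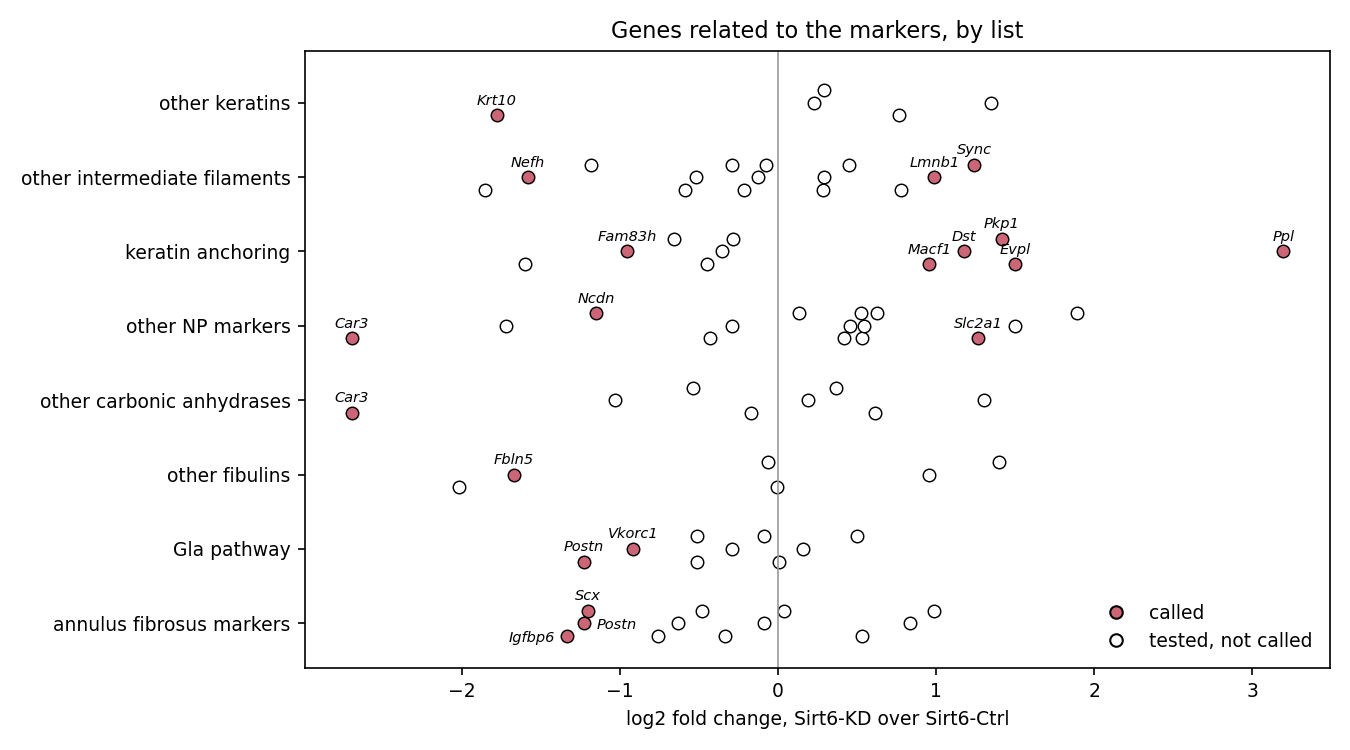
Change between Sirt6-KD and Sirt6-Ctrl (log2 scale, positive when higher in Sirt6-KD) for the tested genes of 8 related lists, 1 circle per gene (vertical offsets only separate the circles). Filled circles are called genes and carry their names. In the list of keratin anchoring proteins 5 circles are filled on the higher side and 1 on the lower side, and in the list of other keratins 1, Krt10, is filled.

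The labelled cell type was checked with 27 further symbols of NP genes, of which 18 had a row and 15 were tested. Tbxt and T are symbols of the same gene, as are Ctgf and Ccn2, and of the latter pair Ctgf had the row. The notochord genes Tbxt, Noto and Shh had no row, and Foxa1 and Foxa2 reached at most 54 and 64 reads. Foxf1, a transcription factor of NP cells, had 1148 to 2059 reads over the 8 libraries, and Pax1, of the sclerotome and disc, 1633 to 3039. Of the 15 tested, 1 was called higher and 2 lower, against 8.02% and 10.7% of all genes. Called or not, 10 of the 15 had positive and 5 negative log2 fold changes. Their median was 0.45, against −0.02 over all genes. The glucose transporter Slc2a1 had 22837 to 70430 reads in the controls and 89561 to 124692 in Sirt6-KD (log2 fold change 1.27 ± 0.33 SE, edgeR adjusted p = 0.0225), and its call was lost in 7 of 19 alternatives. Neurochondrin (Ncdn) fell from 60.9 ± 15.2 to 27.4 ± 2.85 CPM (−1.15 ± 0.19 SE, edgeR adjusted p = 0.00441), and Car3 is given above. With S3 and S4 as the only controls the list had 0 called higher and 3 lower. Without S3 it had 4 higher and 2 lower, without S2 1 and 3, and without S1, S5, S6 or S7 0 and 2. Pax1 had an edgeR adjusted p of 0.0459 with a log2 fold change of −0.43 ± 0.14 SE, under 1.5-fold.

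Markers of other cell types were listed beside them. Epithelial genes, which keratins also mark, gave 5 rows of 14 and summed to 6.21 to 15.8 CPM in the controls and 4.71 to 8.36 CPM in Sirt6-KD, with Epcam and Cdh1 without a row and 0 of 4 tested called. Endothelial genes (2 rows of 8, up to 1.84 and 2.37 CPM, Pecam1 and Cdh5 without a row) and immune genes (2 rows of 8, up to 3.28 and 5.17 CPM, Ptprc without a row) had no call, and 0 of 6 erythroid symbols had a row. Annulus fibrosus genes summed to 19106 to 34634 CPM in the controls and 15249.8 to 26155 CPM in Sirt6-KD, most of it Col1a1. Of 12 tested, 4 had positive and 8 negative log2 fold changes, with a median of −0.41. The calls were 0 higher and 3 lower, against 8.02% and 10.7% of all genes. Those called lower were Igfbp6 (log2 fold change −1.34 ± 0.24 SE, edgeR adjusted p = 0.00596), Postn and the tendon transcription factor Scx (−1.20 ± 0.39 SE, edgeR adjusted p = 0.049, groups overlapping). The Scx call held in 5 of 19 alternatives. The list had 0 higher and 4 lower without S1 and S2, 2 higher and 2 lower without S4, 0 and 4 without S3 or S8, and 0 and 2 without S1, S2, S5, S6 or S7. Whether the makeup of the cultures has a part in the marker values was not tested.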

How the data were processed

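Libraries of 4 Sirt6-Ctrl and 4 Sirt6-KD cultures were grouped by their labels. The authors deposited raw read counts per Ensembl gene and spike-in, which the submitters' processing notes tie to Trimmomatic 0.36, STAR 2.5.2b, featureCounts of Subread 1.5.2 and Rnor_6.0. The annotation release, strand setting and treatment of reads shared between copies are not given in the sources used here. A second deposited table holds a normalised signal per library (the authors' counts times 1 constant per library), and the authors' own log2 fold changes, p-values and adjusted p-values. Those comparison columns were not used, and only gene names and the rows kept were taken from it. It has 13612 rows of 32975, and 72 genes tested have no name.

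Counts were filtered with filterByExpr, normalised by TMM and tested in edgeR 4.0.16 (R 4.3.3) with the quasi-likelihood test, two-sided, with Benjamini-Hochberg adjustment over 13313 rows (63 spike-ins), in a group-only design, and the fit was tested on simulated data. CPM used TMM-scaled library sizes. No unit of gene length was used, so levels are not compared between genes. Depth was 31994838 to 40124813 reads, and floors of 3 reads cover counting error only. No 2 libraries agreed within sampling noise (chi-square per degree of freedom at least 18.4), and p-values measure the spread between these cultures. Alternatives were other filters, scalings, DESeq2 1.42.0, limma-voom 3.58.1, glmTreat, each library left out, and S1 and S2 left out. The members and lists were chosen with earlier results of these data known. Named genes were all markers, called list genes (the 4 with the smallest p where a list had more in 1 direction), each detected keratin, defining markers of other cell types, and the 4 most read genes of the carbonic anhydrase, aquaporin and fibulin families. Evpl, Plec, Jup, Dsp, Vim, Ggcx, Pax1, Foxf1, Acan, Marcks, Marcksl1 and Gap43 were named after their values were seen.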

Additional observations from a re-analysis of the deposited data

Results flagged for a closer look

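In each group of 4 libraries the gap in CPM of the highest or lowest library to its neighbour was divided by the range of the group. The value was compared with Dixon's 95% critical value over 60 groups, each 1 gene in 1 condition. It was computed on TMM-normalised CPM and not on reads, so it depends on the scaling. The value was above it in 3, which is as many as 1 in 20 groups gives by chance. Car12 in S3 stood far above the other controls (0.867), at 74.6 CPM against 8.87 to 17.6 (2534 reads against 366 to 612). Comp, a cartilage matrix protein, was highest in S1 (0.927), at 16.1 CPM against 8.26 to 8.82 in the other controls (559 reads against 267 to 364). Fbln5 was highest in S2 (0.874), at 39.2 CPM against 22.1 to 24.2 (1267 reads against 750 to 1000).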

How the results depend on the processing

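Krt7 was called higher in 18 of 19 alternatives (log2 fold change 1.54 to 2.56), the exception being spike-in scaling (edgeR adjusted p = 0.0711). Krt8 kept its direction in all 19 but was called in 8 (−1.51 to −0.13). The markers called higher numbered 0 with spike-in scaling, 2 with limma-voom and 1 to 3 with 1 library left out. Those called lower numbered 0 with no filter, library totals, spike-in scaling, limma-voom and glmTreat, 2 with DESeq2 and 0 to 2 with 1 library left out. Over all genes, calls were 1063 higher and 1416 lower. They became 20 and 4 with spike-in scaling, 92 and 185 with glmTreat, 1606 higher with DESeq2, 709 lower without S1 and S2, and 445 to 1699 higher and 700 to 1913 lower with 1 library left out, which also lowers the number of samples. The cause of the other shifts was not tested. Directions turned for Cd24 (0.21) and Vkorc1 (0.16) with spike-in scaling, under which the median of all genes was 0.94. Relative to that median, Cd24 was at −0.73 and Vkorc1 at −0.79. The direction of Basp1 turned without S5 (−0.021) and without S1 and S2 (−0.018), with −0.021 to 0.24 over the 8 libraries left out in turn. Mgp turned with no filter (0.0075), upper quartile (0.0049), library totals (0.065), spike-in scaling (0.93), spike-in rows removed (0.00029) and limma-voom (0.27), and without S2 (0.03), S4 (0.39) or S7 (0.11), with −0.36 to 0.39 over the 8 libraries left out. No paired analysis was possible because nothing in the labels or column names ties a Sirt6-KD library to a particular control, although the series record implies that each had one. Values with few reads, such as Aqp1 in S1 at 3, carry a large counting error. S1 had 36180666 counted reads, against 31994838 in S3, where Aqp1 had 365. The reason for the spread of Aqp1 among the controls was not tested.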

Other observations

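Of 15 cartilage genes listed, 9 were tested, with 1 called higher and 2 lower, against 8.02% and 10.7% of all genes. Col2a1, the main cartilage collagen, had no row. Comp fell from 10.4 ± 3.80 to 1.29 ± 0.579 CPM (log2 fold change −3.01 ± 0.43 SE, edgeR adjusted p = 0.00298), and Col11a2 from 8.19 ± 1.43 to 3.79 ± 0.682 CPM (−1.11 ± 0.31 SE, edgeR adjusted p = 0.0277). The call for Col11a2 was lost in 10 of 19 alternatives. Col9a1 was called higher with 2, 1, 0 and 1 reads in the controls and 28, 13, 13 and 31 in Sirt6-KD, counts too low for a fitted fold change to be read as a size. Aggrecan (Acan), the main proteoglycan of NP matrix, had 158, 501, 300 and 2296 reads in the controls and 385, 518, 376 and 632 in Sirt6-KD and was not called (−0.62 ± 0.63 SE, edgeR adjusted p = 0.52), with S4 far above the other controls. The 2 chains of type I collagen had very unequal reads in the count table, with Col1a1 at 290419 to 1040124 reads and Col1a2 at 31 to 107 reads over the 8 libraries.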
